A study of Mus musculus with 9 samples.

Results

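The Sprouty genes Spry1, Spry2 and Spry4 and the Spred genes Spred1, Spred2 and Spred3 encode intracellular inhibitors of RAS-ERK signalling. These 6 genes were taken by symbol from 37022 genes with a signal value, and all 6 were found. The family has 14 transcript rows, and each gene was read from the one whose gene-body signal, averaged over all 9 libraries, was largest. Nascent RNA came from mouse CD8+ T cells, the lymphocytes that kill infected and malignant cells, after live cells took up 0.2 mM 5-ethynyl uridine for 30 minutes, so that RNA made in that time could be captured and sequenced. The libraries formed 3 groups of 3: acute stimulation (Acute), chronic stimulation (Chronic), and chronic stimulation with inhibition of MEK (ChronicMEKi), the kinase that phosphorylates ERK. The study's subject was exhaustion, in which T cells lose function under lasting stimulation. Strain, age, the stimulus, its duration and the name and dose of the inhibitor are not given in the sources used here. Nothing in the labels says that libraries of a group came from separate animals or cultures, so p-values measure the spread between these libraries, which may be technical.

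Antigen receptor and growth factor signals reach ERK through the adaptor GRB2, the exchange factor SOS, RAS, the RAF kinases and MEK. Sprouty proteins act on the upstream part of this chain, where they bind GRB2 and RAF, and Spred proteins bring neurofibromin, the product of Nf1, to the membrane, where it switches RAS off. Several Sprouty and Spred genes are themselves switched on by ERK signalling in many tissues, which makes the family a negative feedback loop, and Sprouty proteins are known to restrain signalling in T cells.

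A window of 250 bases upstream of the RefSeq start (GRCm38.p6) was on hand for 5 of the 6 genes. The windows of Spry1, Spry2 and Spred1 are shown, because these genes had the 3 patterns described below: Spry1 was lower in Chronic than in Acute, Spry2 was higher in Chronic than in both other groups, and Spred1 was lower in ChronicMEKi than in both other groups. They lie at chr3:37639697-37639946, chr14:105896820-105897069 and chr2:117120821-117121070, and each is written 5′ to 3′ on its gene's strand. Capitals mark letters of an ETS core (CCGGAA or CGGAAG) or of the octamer of Capicua (TGAATGAA, TGAATGGA, TCAATGAA or TCAATGGA), on either strand. Some ETS factors are activators, and Capicua is a repressor, that ERK is known to act on.
Spry1: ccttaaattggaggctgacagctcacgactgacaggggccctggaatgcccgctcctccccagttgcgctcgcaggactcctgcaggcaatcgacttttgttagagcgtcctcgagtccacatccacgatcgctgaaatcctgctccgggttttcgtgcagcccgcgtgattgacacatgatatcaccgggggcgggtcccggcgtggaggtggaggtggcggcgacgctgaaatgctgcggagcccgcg
Spry2: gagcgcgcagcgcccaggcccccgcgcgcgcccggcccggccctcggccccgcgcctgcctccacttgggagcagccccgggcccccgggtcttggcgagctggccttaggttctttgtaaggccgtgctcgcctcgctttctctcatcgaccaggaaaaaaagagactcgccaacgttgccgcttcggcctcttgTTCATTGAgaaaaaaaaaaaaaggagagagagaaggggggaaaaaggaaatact
Spred1: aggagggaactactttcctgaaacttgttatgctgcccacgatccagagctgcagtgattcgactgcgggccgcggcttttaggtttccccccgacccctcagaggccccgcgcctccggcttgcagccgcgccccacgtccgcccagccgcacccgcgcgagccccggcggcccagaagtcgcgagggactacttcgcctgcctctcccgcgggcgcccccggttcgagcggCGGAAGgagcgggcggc
The Spry2 window held a Capicua octamer as TTCATTGA, from 54 to 47 bases before the start. An octamer was present in 3.19% of 32851 windows of this length. The Spred1 window held an ETS core as CGGAAG, from 17 to 12 bases before the start, and ETS cores were present in 18.0% of windows. Neither motif was found in the Spry1 window in the forms listed. The shorter stretch GGAA, which both ETS forms share, was not searched for. Among the windows not shown, Spred2 had an ETS core as CTTCCG, from 43 to 38 bases before the RefSeq start and overlapping a GC box, and Spred3 had a Capicua octamer as TGAATGAA, from 10 to 3 bases before the start. GC boxes (GGGCGG on either strand) were in the Spry1, Spred1, Spred2 and Spred3 windows and in 32.7% of all windows. The CREB core TGACG was found in the Spred2 window and in 17.8% of all windows. AP-1 sites (TGANTCA), EGR sites (GCGTGGGCG or GCGGGGGCG) and TATAAA were found in none of the 5 windows, against 6.75%, 3.06% and 12.4% of all windows. The RefSeq start of Spred1 lies 303 bases upstream of the start of the transcript measured here, and that of Spred2 67 bases downstream, so the Spred2 match falls inside the transcript measured. A match is a match of letters and no measurement of binding.

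The authors deposited, for each transcript, a signal over its gene body and a signal over a pause region near its start, and depth in reads is unknown. Gene-body signal summed over genes ranged from 48601757 to 52216192 per library. A ribosomal RNA-like locus held between 19.1% and 22.3% of it in Acute, between 34.2% and 40.6% in Chronic and between 29.0% and 36.1% in ChronicMEKi libraries. Signal was therefore scaled by a trimmed mean of log ratios between libraries, and all values below are this scaled signal, in arbitrary units. Genes whose deposited signal reached 50 in 3 or more libraries were tested with limma on log2(scaled signal + 5), and a gene was called at an adjusted p under 0.05 (Benjamini-Hochberg over all genes tested). The added 5 makes log2 differences of weak genes too small. Between Chronic and Acute, 2875 of 15942 genes were called higher and 2528 lower; scaled to library totals instead, 1096 were higher and 6846 lower, with the median gene shifted by -0.49 on the log2 scale. For ChronicMEKi against Chronic the split was 1583 higher and 1219 lower, and 1769 and 741 on library totals. For ChronicMEKi against Acute it was 2291 higher and 1827 lower, and 955 and 4965 on library totals. Which direction held more genes turned in both comparisons of ChronicMEKi when 1 library was left out. Against Chronic, leaving out ChronicMEKi replicate 1 gave 933 higher and 1195 lower, and leaving out Acute replicate 1, 2 or 3 gave 1280 and 1408, 1380 and 1661, and 1296 and 1424. Against Acute, leaving out Acute replicate 1 or 3 or ChronicMEKi replicate 1 gave 1626 and 1755, 1634 and 1727, and 1578 and 1756. Directions here are relative to the trimmed mean of genes. All 7 T cell markers passed the filter. Their summed signal ranged from 36028 to 41727 in Acute, from 22596 to 27565 in Chronic and from 30867 to 33446 in ChronicMEKi libraries. In that order of groups, mean Cd8a, a chain of the CD8 co-receptor, was 4061, 968 and 2881, and mean Cd8b1 1872, 1229 and 2041. Mean Cd3d was 1266, 1244 and 1397, mean Cd3g 1500, 1592 and 1530 and mean Cd3e 3732, 2627 and 3434. Mean Lck was 10393, 7133 and 7979, and mean Cd247 15134, 10993 and 12699. Of the B cell markers 2 of 5 passed, with sums of 534 to 565, 189 to 219 and 160 to 435. Cd4, the 1 helper T cell marker with a row, ranged from 383 to 496, from 144 to 344 and from 101 to 141. Of 3 natural killer markers 1 passed, with sums of 968 to 1766, 1861 to 2231 and 930 to 1082, nearly all from Klrk1, which CD8+ T cells also express, while mean Ncr1 was 3.91, 1.96 and 0 and mean Klrb1c 9.87, 24.1 and 40.6. Of 6 myeloid markers 2 passed, Csf1r and Adgre1, with sums of 163 to 227, 129 to 176 and 99.3 to 233, while mean Lyz2 was 0.906, 1.88 and 2.83. The mast cell, red cell and stromal and endothelial markers each summed to at most 177 in any library. The part of these markers in the results was not tested, and in such bulk samples fewer cells of a type and less RNA per cell cannot be told apart.

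Chronic stimulation moved Spry1 and Spry2 in opposite directions. Spry1 was the Sprouty gene with the most signal per kilobase in Acute libraries, and its signal fell under chronic stimulation, while that of Spry2 rose. Of the 5 family members tested, 1 was called higher and 1 lower between Chronic and Acute, in a comparison where 33.9% of all genes tested were called, 18.0% higher and 15.9% lower. In ChronicMEKi libraries, 3 of the 5 were called lower than in Chronic and 0 higher, where 17.6% of all genes were called, 9.93% higher and 7.65% lower. Against Acute, 3 of the 5 were called lower in ChronicMEKi libraries and 0 higher, where 25.8% of all genes were called, 14.4% higher and 11.5% lower. These 3 comparisons share groups, so their counts are not independent of each other. Spred3 did not pass the filter, and Spry4 passed it through the 3 Chronic libraries and Acute replicate 1. Passing through the group where it was highest favours a call of Spry4 as lower than Chronic, which is among the 3 counted.

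**Figure D1:**
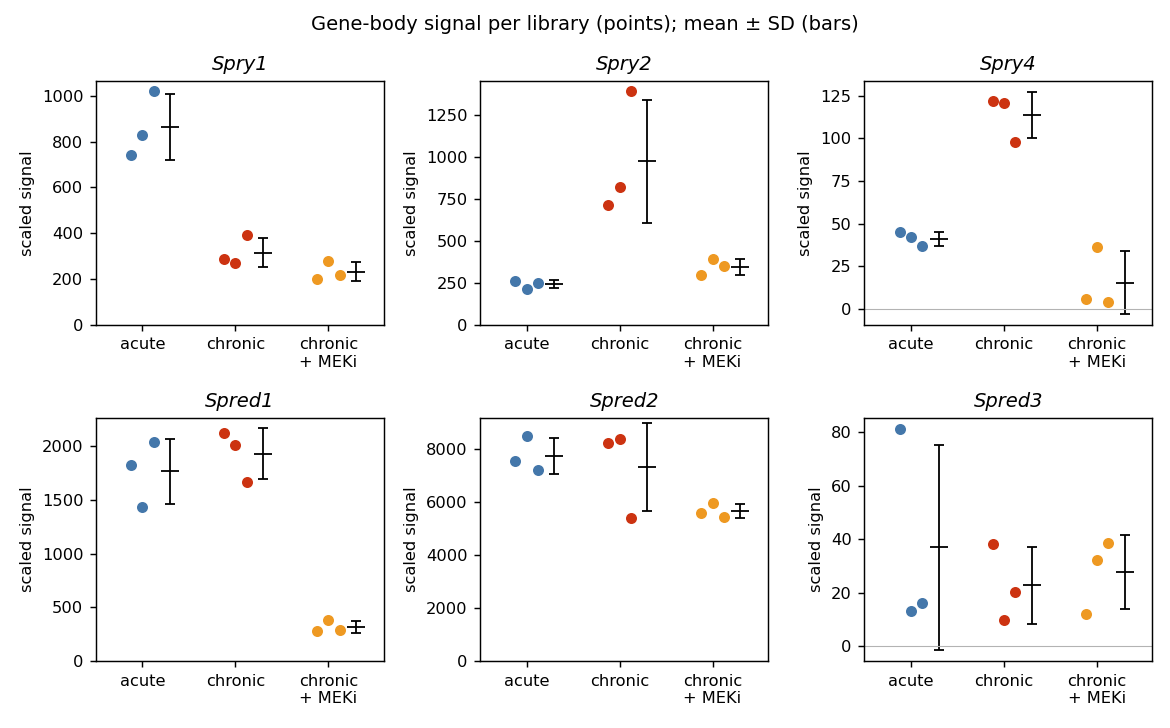
Scaled gene-body signal (vertical axes, arbitrary units, each from its own range) of the 6 genes in the 3 libraries of each group (points, replicates 1 to 3 from left to right), with the group mean and SD as black bars. Spry1 is highest in Acute, Spry2 and Spry4 are highest in Chronic, and Spred1 is lowest in ChronicMEKi libraries, each without overlap with the other groups.

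Spry1 encodes a Sprouty protein that restrains receptor signalling to RAS and is known as a brake in T cells. Its transcript spans chr3:37639947-37644598 (GRCm38, GENCODE M21), plus strand, and shares 710 bases at the start with Gm42922, a transcript model of type TEC on the opposite strand with a mean deposited signal of 42.9. Counting by strand is not stated in the sources used here, so the overlapping transcripts cannot be told apart in that stretch. Its gene-body signal was 740, 831 and 1023 in Acute replicates 1 to 3, then 285, 271 and 390 in Chronic and 202, 278 and 216 in ChronicMEKi libraries. All Acute libraries lay above all others, and the Chronic and ChronicMEKi libraries overlapped. Signal was lower in Chronic than in Acute, at 315 ± 65.1 (SD, n = 3) against 865 ± 145, a log2 difference of -1.45 (SE 0.22, limma adjusted p 4.62e-05). Between ChronicMEKi and Chronic the log2 difference was -0.43, with a 95% interval from -0.89 to 0.03 (adjusted p 0.210). The ChronicMEKi libraries remained below Acute, by a log2 difference of -1.88 (SE 0.22, limma adjusted p 3.86e-06).

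Spry2, the Sprouty gene best known as a target of ERK signalling, moved the other way between Acute and Chronic. Its transcript spans chr14:105891947-105896819, minus strand. Its gene-body signal was 261, 215 and 249 in Acute, 711, 821 and 1394 in Chronic and 296, 391 and 351 in ChronicMEKi libraries. Chronic libraries lay above all others, and ChronicMEKi libraries lay between the other groups without overlap. Chronic replicate 3 stood highest. The mean rose from 241 ± 23.6 (SD, n = 3) in Acute to 975 ± 366 in Chronic, a log2 difference of 1.93 (SE 0.24, limma adjusted p 3.87e-06). It was 346 ± 48.0 with the inhibitor, a log2 difference from Chronic of -1.43 (SE 0.24, limma adjusted p 0.000243). The remaining difference from Acute was 0.51, with a 95% interval from 0.01 to 1.00, and was not called (adjusted p 0.132), although the groups did not overlap, as for 42.0% of all genes tested. Groups did not overlap for 44.2% of genes between Chronic and Acute and for 32.2% between ChronicMEKi and Chronic.

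Since the Spry1 and Spry2 transcripts were counted in the same libraries, their ratio does not depend on the scaling. Per kilobase, the ratio of Spry2 to Spry1 was 0.336, 0.247 and 0.232 in the Acute libraries. It was 2.38, 2.89 and 3.41 in the Chronic and 1.40, 1.34 and 1.55 in the ChronicMEKi libraries. Spry1 thus had more signal in every Acute library and Spry2 in every Chronic and every ChronicMEKi library. The change of the log2 ratio of Spry1 to Spry2 was -3.38 between Acute and Chronic and 1.00 between Chronic and ChronicMEKi. Each had a two-sided exact permutation p of 0.1, below which 3 against 3 libraries cannot go. Adjusted over 30 tests of 10 pairs of members, it was 0.136.

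Spry4 encodes a Sprouty protein that acts on RAS and RAF signalling, and its signal was weak. Its transcript spans chr18:38586247-38601415, minus strand. Gene-body signal was 44.8, 42.0 and 36.7 in Acute, 122, 121 and 97.8 in Chronic and 5.61, 36.5 and 4.17 in ChronicMEKi libraries. Chronic libraries were the highest and ChronicMEKi libraries the lowest, with no overlap between any groups, and ChronicMEKi replicate 2 lay close to the lowest Acute library. Spry4 was lower with the inhibitor than in Chronic, by a log2 difference of -2.89 (SE 0.60, limma adjusted p 0.00208). Since it passed the filter mainly through the Chronic libraries, this call was favoured by the filter. The difference between Chronic and Acute was 1.36, with a 95% interval from 0.09 to 2.63, and was not called (limma adjusted p 0.0937). That between ChronicMEKi and Acute was -1.53, from -2.80 to -0.26, and was not called either (limma adjusted p 0.0723). The difference from Chronic was -3.58 without ChronicMEKi replicate 2 and -2.50 without replicate 3, and ranged from -3.48 with a pseudocount of 0.5 to -2.02 with one of 20. It was called in each of these fits. Without ChronicMEKi replicate 2 the adjusted p-values of the other comparisons were 0.0367 and 0.00548, and the difference of ChronicMEKi from Acute was -2.23.

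Spred1 encodes the Spred protein whose loss in people causes Legius syndrome, a disorder of RAS signalling, and which binds neurofibromin. Its transcript spans chr2:117121374-117182279, plus strand. Its gene-body signal was 1820, 1435 and 2032 in Acute and 2115, 2006 and 1660 in Chronic libraries, which overlapped. It was 279, 385 and 293 in ChronicMEKi libraries, each far below every other library. The mean fell from 1927 ± 237 (SD, n = 3) in Chronic to 319 ± 57.9 with the inhibitor, a log2 difference of -2.58 (SE 0.17, limma adjusted p 3.07e-09). Ordered from the most negative difference, Spred1 was number 65 of 15942 genes. Against Acute the log2 difference was -2.45 (SE 0.17, limma adjusted p 4.40e-09). Chronic and Acute differed by 0.14, with a 95% interval from -0.21 to 0.48 (limma adjusted p 0.560). That small difference turned to -0.35 when signal was scaled to library totals.

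Spred2, a relative of Spred1 with the same kind of action on RAS, has a transcript at chr11:19924375-20024026, plus strand. Its gene-body signal was 7535, 8483 and 7195 in Acute, 8231, 8366 and 5420 in Chronic and 5594, 5978 and 5436 in ChronicMEKi libraries. Chronic replicate 3 lay with the ChronicMEKi libraries, and the other Chronic libraries lay with Acute. ChronicMEKi was called lower than Acute, at 5669 ± 279 (SD, n = 3) against 7738 ± 667, a log2 difference of -0.45 (SE 0.14, limma adjusted p 0.0231). Without ChronicMEKi replicate 3 this was -0.42 (limma adjusted p 0.0795). The difference between ChronicMEKi and Chronic was -0.35, with a 95% interval from -0.63 to -0.06 (limma adjusted p 0.0974). Without Chronic replicate 3 it was -0.55 (limma adjusted p 0.000139), and without Acute replicate 2 -0.41 (limma adjusted p 0.0365). Chronic and Acute differed by -0.10 (95% interval from -0.39 to 0.19, limma adjusted p 0.604), by -0.59 on library totals (limma adjusted p 0.00542) and by 0.11 without Chronic replicate 3.

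Spred3 encodes the third Spred protein and was near the low end of the data. Its transcript spans chr7:29158829-29168647, minus strand. Its gene-body signal was 81.3, 13.1 and 16.3 in Acute, 38.3, 9.68 and 20.2 in Chronic and 12.0, 32.2 and 38.5 in ChronicMEKi libraries. Only 1 library had a deposited signal of at least 50, the groups overlapped in every comparison, and no test was made.

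**Figure D2:**
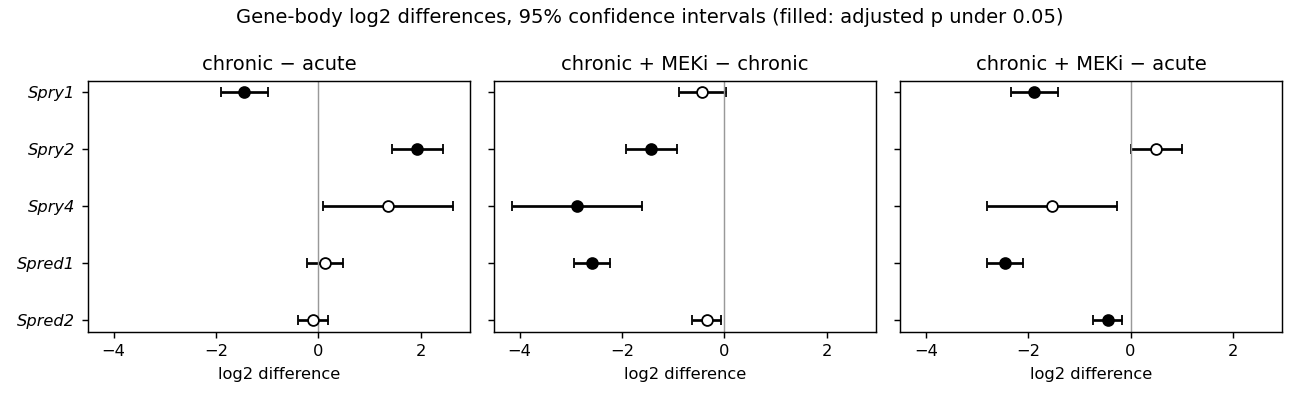
Log2 differences of gene-body signal between groups (horizontal axes) for the 5 family members tested, with 95% confidence intervals from limma; filled points have an adjusted p under 0.05. In the first panel Spry1 lies at -1.45 and Spry2 at 1.93, and in the second Spry2, Spry4 and Spred1 lie at -1.43, -2.89 and -2.58.

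The Spred1 fall with the inhibitor and the smaller Spred2 difference can also be read as a ratio within each library. Per kilobase, the ratio of Spred1 to Spred2 was 0.395, 0.277 and 0.462 in Acute and 0.420, 0.392 and 0.501 in Chronic libraries. It was 0.0815, 0.105 and 0.0881 in ChronicMEKi libraries, all below every other library. The log2 ratio changed by -2.24 between Chronic and ChronicMEKi (two-sided exact permutation p 0.1, adjusted p 0.136). Over all 30 tests of pairs of members, 22 reached the smallest p of 0.1 and 0 had an adjusted p under 0.05, which the design could not give.

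Levels of different genes were compared as gene-body signal per kilobase of the annotated span, with shares of the undivided signal added at the end. In Acute libraries the order was Spry1 at 186 ± 31.1 (SD, n = 3), Spred2 at 77.7 ± 6.70, Spry2 at 49.5 ± 4.85 and Spred1 at 28.9 ± 4.97 per kilobase, with Spred3 at 3.76 ± 3.92 and Spry4 at 2.71 ± 0.272. The ranges of the first 4 did not overlap there, and those of Spred3 and Spry4 did. In Chronic libraries Spry2 came first at 200.2 ± 75.2 per kilobase, and Spred2 at 73.6 ± 16.7 and Spry1 at 67.8 ± 14.0 overlapped. Spred1 followed at 31.6 ± 3.90, Spry4 at 7.48 ± 0.897 and Spred3 at 2.32 ± 1.48 per kilobase. With the inhibitor the order was Spry2 at 71.0 ± 9.86, Spred2 at 56.9 ± 2.80, Spry1 at 49.9 ± 8.77, Spred1 at 5.24 ± 0.951, Spred3 at 2.81 ± 1.41 and Spry4 at 1.02 ± 1.20 per kilobase. There Spred2 and Spry1 overlapped, as did Spred3 and Spry4. Summed over the family, signal per kilobase was 348 ± 28.0 in Acute, 383 ± 67.2 in Chronic and 187 ± 23.3 in ChronicMEKi libraries. Spry1 made up 53.1% ± 4.75 of this sum in Acute, 17.7% ± 0.985 in Chronic and 26.6% ± 1.43 in ChronicMEKi libraries, and Spry2 14.3% ± 1.72, 51.1% ± 9.83 and 38.0% ± 1.57. These shares depend on the division by span. Of the signal summed without it, Spry1 made up 8.10%, 3.05% and 3.49% in Acute, Chronic and ChronicMEKi libraries, and Spry2 2.26%, 9.59% and 5.22%. Spred2 made up 72.4%, 68.0% and 85.8% of that sum.

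**Figure D3:**
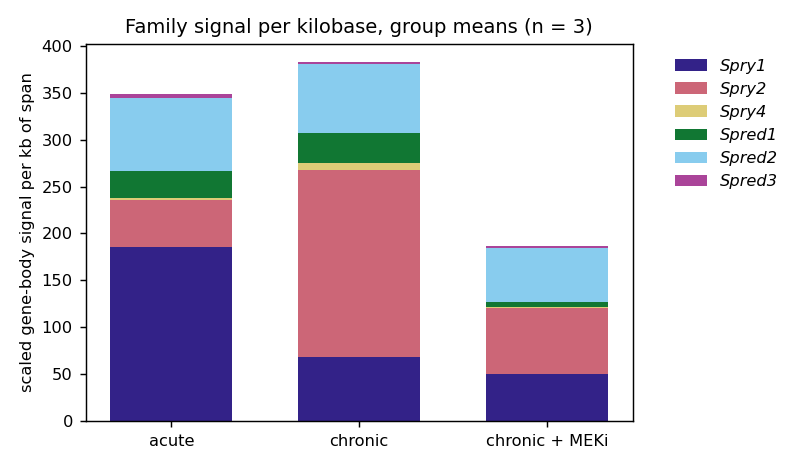
Mean scaled gene-body signal per kilobase of annotated span (vertical axis, n = 3 libraries per group), stacked over the 6 genes. Spry1 makes up 53.1% of the Acute bar and Spry2 51.1% of the Chronic bar, as means of the shares in single libraries, and the ChronicMEKi bar is the lowest.

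The pause region gives a second value from the start of each gene. Spry2 signal there was 27.4, 24.3 and 27.7 in Acute, 124, 197 and 172 in Chronic and 82.1, 68.0 and 116 in ChronicMEKi libraries. The 3 groups did not overlap and had the same order as in the gene body. Groups did not overlap for 24.3% of genes between Chronic and Acute, for 20.2% between ChronicMEKi and Chronic and for 24.7% between ChronicMEKi and Acute. Spry2 was higher in Chronic than in Acute by a log2 difference of 2.41 (SE 0.38, limma adjusted p 4.75e-05), where 5.37% of 7678 genes were called higher and 5.35% lower. It was higher in ChronicMEKi than in Acute by 1.54 (SE 0.38, limma adjusted p 0.0116), where 3.44% were called higher and 2.51% lower. This was not called without ChronicMEKi replicate 3 (limma adjusted p 0.0962), on library totals (limma adjusted p 0.0622) or without a filter on low values (limma adjusted p 0.0990). The difference between ChronicMEKi and Chronic was -0.86, with a 95% interval from -1.64 to -0.09 (limma adjusted p 0.277), where 1.56% were called higher and 1.43% lower.

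Spred1 had too little signal in the pause region to be tested. It was 37.1, 32.0 and 57.3 in Acute, 37.6, 12.8 and 23.1 in Chronic and 2.69, 6.04 and 3.83 in ChronicMEKi libraries. As in the gene body, every ChronicMEKi library lay below every other library. Spry4 signal was 0 in all 3 ChronicMEKi libraries and between 2.33 and 19.1 in Chronic libraries, and Spred3 reached at most 5.93. Spry1 had 66.2, 69.4 and 49.4 in Acute, 11.5, 74.7 and 12.1 in Chronic and 22.2, 14.4 and 49.8 in ChronicMEKi libraries. Chronic replicate 2 lay above all Acute libraries and the others below, and no comparison of Spry1 was called. Spred2 ranged from 69.2 to 131 in Acute, from 45.5 to 134 in Chronic and from 35.4 to 104 in ChronicMEKi libraries, and was not called.

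**Figure D4:**
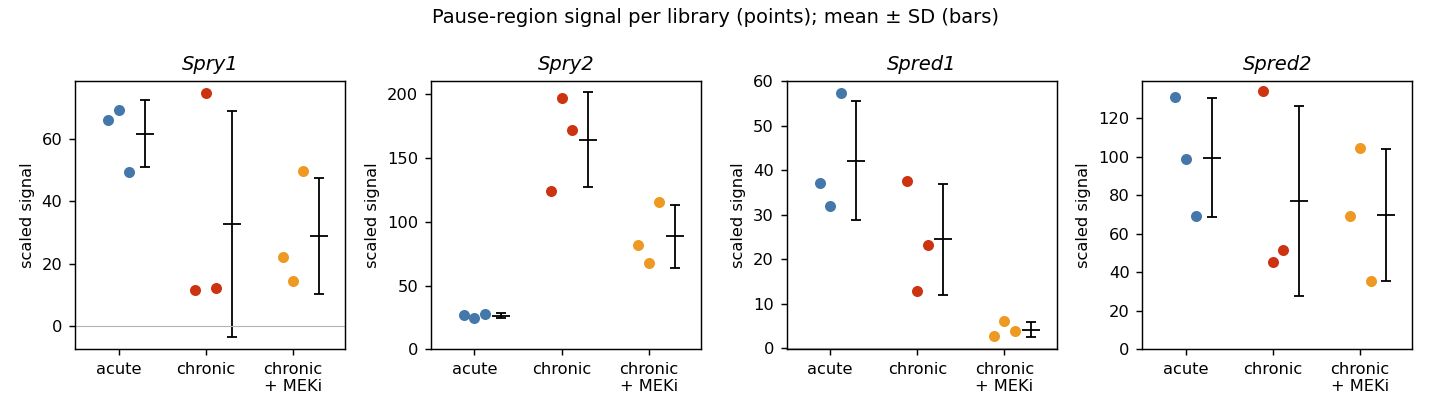
Scaled pause-region signal (vertical axes, arbitrary units) of Spry1, Spry2, Spred1 and Spred2 in the 3 libraries of each group (points, replicates 1 to 3 from left to right), with the group mean and SD as black bars. Spry2 ranges from 24.3 to 27.7 in Acute and from 124 to 197 in Chronic libraries, and Spred1 from 2.69 to 6.04 in ChronicMEKi libraries.

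The balance between pause region and gene body was tested as the difference of their log2 values for Spry1, Spry2 and Spred2, which passed the filter in both tables. Spry2 had the largest change, a higher pause region relative to the gene body by 1.04 (SE 0.32) in ChronicMEKi against Acute, with limma p 0.00807 before and 0.539 after adjustment. No gene of 7413 was called by limma in any of the 3 comparisons (0%). At an unadjusted limma p under 0.05 there were 749 for Chronic against Acute, 394 for ChronicMEKi against Chronic and 591 for ChronicMEKi against Acute. Under that limit a share of 0.05 of genes is expected where no gene has changed.

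Signal along the longer genes was compared through annotated transcripts that start further downstream and also end earlier. Those used span chr2:117121638-117172854 for Spred1 and chr11:19954570-20018133 for Spred2. For Spred1 most of the span left out lies at the end of the gene, so its shares do not set the start against the rest. A shorter Spred1 transcript covers 84.1% of the span of the Spred1 transcript used and had 75.6% ± 1.93 of its signal in Acute, 74.7% ± 5.36 in Chronic and 73.1% ± 7.14 in ChronicMEKi libraries (SD, n = 3). A shorter Spred2 transcript covers 63.8% of the span of the Spred2 transcript used and had 42.5% ± 1.06, 41.1% ± 3.16 and 45.1% ± 0.892 of its signal. The Spred1 shares overlapped between all groups. The Spred2 shares were 44.5% to 46.1% in ChronicMEKi libraries, above those of every Acute library (41.9% to 43.7%) and every Chronic library (37.5% to 43.0%), and this difference was not tested.

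The genes most like each member were those with the highest Pearson correlation of log2 signal over the 9 libraries, among 11109 genes with a mean of at least 100 in the highest group. These points share libraries and fall into 3 groups, and the correlations are descriptions. For Spred1 they were Dcun1d3, a factor in cullin neddylation (r = 0.988), Dusp6, the ERK phosphatase (0.985), and Clcn3, a chloride-proton exchanger (0.982). For Spry2 they were Mmd (0.980), the lipid droplet coat gene Plin2 (0.979) and the metallothionein gene Mt1 (0.978). For Spry1 they included the overlapping genes Ipcef1 (0.968) and Oprm1 (0.967). For Spry4 they were Slc9b2 (0.980), Ift57 (0.965) and Ak4 (0.953), and for Spred2 Atxn7l1 (0.985), Map3k5 (0.973) and Mbnl2 (0.965). Between members the correlation was highest for Spry4 with Spred1 (0.85) and lowest for Spry1 with Spry2 (-0.43).

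Genes of the surrounding pathway were described through 3 lists. Beside their counts stand the shares of all genes tested. Between Chronic and Acute, 18.0% were called higher and 15.9% lower. Between ChronicMEKi and Chronic the shares were 9.93% higher and 7.65% lower, and between ChronicMEKi and Acute 14.4% higher and 11.5% lower. The first holds 24 partners and targets of Sprouty and Spred proteins, of which 23 were tested. Between Chronic and Acute, 4 were called higher and 7 lower, with a list median of -0.16 against -0.02 over all genes. Kit, a receptor kinase that Spred proteins restrain, fell from 453 ± 32.6 (SD, n = 3) to 57.9 ± 27.4, a log2 difference of -2.95 (SE 0.25, limma adjusted p 4.43e-08). Nedd4, a ubiquitin ligase that acts on Sprouty proteins, rose by 1.70, and Plcg1, the phospholipase downstream of the T cell receptor, fell by 0.94. On library totals 2 members of this list were higher and 17 lower. With the inhibitor, 9 were higher and 4 lower than in Chronic, with a list median of 0.27 against 0.04 over all genes. Kit was higher by 5.41 (SE 0.25, limma adjusted p 8.62e-11), at 2510 ± 232, whereas Cblb, a ubiquitin ligase that restrains T cell activation, fell by 0.74. Nf1, whose product Spred proteins bring to RAS, was 2839 ± 212 in Acute, 2994 ± 106 in Chronic and 1904 ± 70.1 in ChronicMEKi libraries. It fell by 0.65 against Chronic (SE 0.10, limma adjusted p 8.84e-05) and by 0.57 against Acute (limma adjusted p 0.000231). Between Chronic and Acute Nf1 differed by 0.08 (limma adjusted p 0.571), and by -0.41 on library totals (limma adjusted p 0.0155). Against Acute, 8 of the list were higher and 2 lower in ChronicMEKi, among them Kit (2.46), Nedd4 (1.02) and Hras (0.84), and on library totals 3 were higher and 8 lower. The number higher was 4 without Acute replicate 1 or 3 or ChronicMEKi replicate 1, and 5 without ChronicMEKi replicate 2 or 3. The Hras call was lost without Acute replicate 1 or 3 or ChronicMEKi replicate 1 or 3 (limma adjusted p 0.0802 to 0.167), or on library totals (limma adjusted p 0.176).

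The second list holds 23 other brakes on RAS-ERK signalling, all tested. Between Chronic and Acute, 7 were higher and 4 lower, with a list median of 0.04. Dusp5, a nuclear ERK phosphatase, rose by 1.82, Dab2ip, a RAS GTPase-activating protein, rose by 1.39, and Dgka, a diacylglycerol kinase, fell by 1.59. On library totals 5 of the list were higher and 11 lower. With the inhibitor, 0 were higher and 10 lower than in Chronic, with a list median of -0.20, and on library totals 3 were higher and 6 lower. Dusp6, the cytoplasmic ERK phosphatase, fell from 2395 ± 89.2 (SD, n = 3) to 204 ± 9.69, a log2 difference of -3.52 (SE 0.13, limma adjusted p 5.23e-12). Dusp5 fell by 1.36 and Dab2ip by 1.16. Dusp6 was 2505 ± 291 in Acute, a difference between Chronic and Acute of -0.06 (limma adjusted p 0.766), and of -0.55 on library totals (limma adjusted p 0.00719). Against Acute, 5 of the list were higher and 7 lower in ChronicMEKi, and on library totals 0 were higher and 10 lower. The largest differences were those of Dusp6 (-3.58) and of the RAS GTPase-activating genes Rasa3 (-2.0) and Rasa1 (-1.67).

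The third list holds 15 transcripts known to follow ERK activity, of which 12 were tested. Between Chronic and Acute, 6 were higher and 2 lower, with a list median of 0.86. On library totals 5 were higher and 4 lower, with a median of 0.39. Fewer members were tested without Acute replicate 1, Acute replicate 3 or ChronicMEKi replicate 2, where the medians were 1.84, 2.08 and 1.67, and 0 were lower without either of those Acute libraries. A single member was lower without Acute replicate 2 or Chronic replicate 1 or 3. Egr2 rose by 3.52 and Ier3 by 3.31, whereas Fos, which passed the filter through the Acute libraries, fell by 3.28. Passing through the group where it was highest favours calls of Fos as lower than Acute. Such calls are among those counted as lower here and for ChronicMEKi against Acute. The Ets factor gene Etv5 rose by 2.70 (SE 0.36, limma adjusted p 1.17e-05). Etv4 rose by 1.68 (SE 0.57, limma adjusted p 0.0293), but the call was lost when Acute replicate 1 or 2 or any 1 of the Chronic replicates was left out (limma adjusted p 0.0599 to 0.0977) or on library totals (limma adjusted p 0.0951). With the inhibitor, 0 of the list were higher and 8 lower than in Chronic, with a list median of -1.48, and the counts were the same on library totals. Etv5 fell by 3.80, Egr2 fell by 3.42, Egr1 fell by 2.90 and Etv4 fell by 2.47. Against Acute, 2 of the list were higher and 4 lower in ChronicMEKi libraries: Egr1 fell by 3.73, Fos fell by 3.66 and Etv5 fell by 1.10, and Phlda1 rose by 2.06. That Etv5 call was lost without Acute replicate 1 or 3 or ChronicMEKi replicate 1 (limma adjusted p 0.0566 to 0.134), and Fos left the test when any Acute library was left out. Without Acute replicate 1 or 3, 2 of the list were lower than in Acute. Etv4 differed from Acute by -0.79 (limma adjusted p 0.346).

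**Figure D5:**
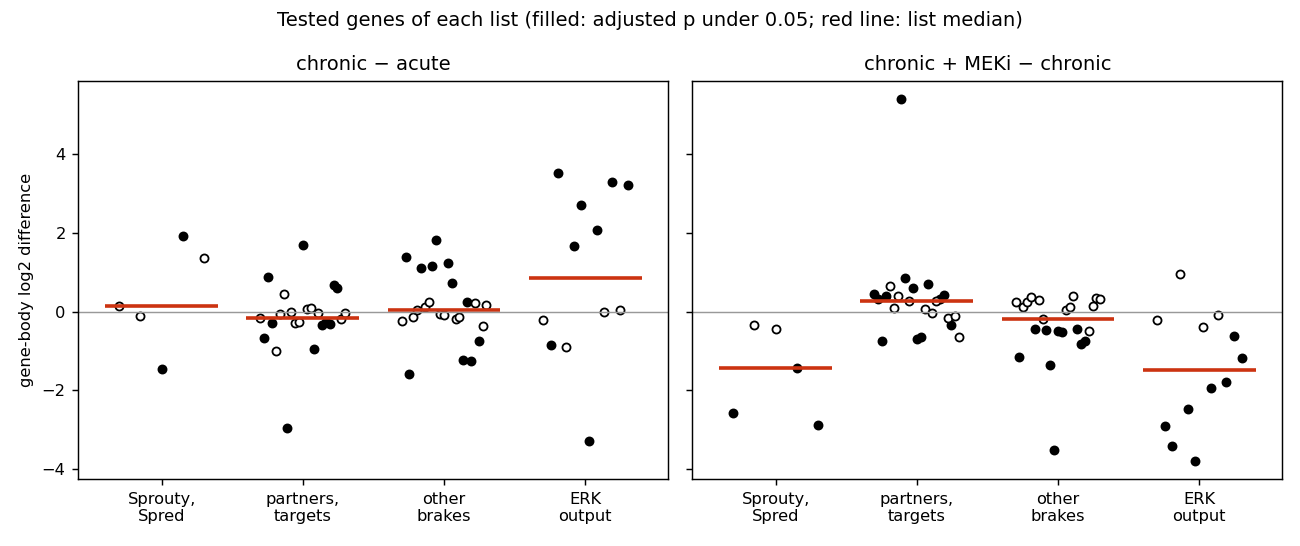
Log2 differences of gene-body signal (vertical axis) of the tested genes in the Sprouty and Spred family and in the 3 pathway lists, for Chronic against Acute (left) and ChronicMEKi against Chronic (right); filled points have an adjusted p under 0.05 and red lines are list medians. Right, the medians are -1.43 for the family, 0.27 for partners and targets, -0.20 for other brakes and -1.48 for transcripts that follow ERK activity.

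Tested genes on either side of each member were also read, 12 in all. In ChronicMEKi against Chronic, 2 of them were called, both beside Spry4, against 17.6% of all genes. AC133601.1, a long non-coding RNA on the opposite strand that starts 0.188 kb from the Spry4 transcript, had 186, 212 and 154 in Chronic and 38.4, 140 and 54.2 in ChronicMEKi libraries. The groups did not overlap. ChronicMEKi replicate 2 was the highest of its group, as for Spry4 but also for Spry1, Spry2, Spred1 and Spred2. It fell by 1.38 (SE 0.43, limma adjusted p 0.0324), and was not called without Chronic replicate 1 or 2 or ChronicMEKi replicate 1 or 3 (limma adjusted p 0.0762 to 0.126) or on library totals (limma adjusted p 0.0504). Ndfip1, an activator of Nedd4-type ubiquitin ligases, lies 120.9 kb away and fell by 0.49 (limma adjusted p 0.000583). Between Chronic and Acute, 2 of the 12 were called, against 33.9% of all genes. Ndfip2, 582.6 kb from Spry2, differed by -0.42 and Spata5, 60.9 kb from Spry1, by -0.27 (limma adjusted p 0.0125 and 0.0479). These 4 genes are named because all calls among neighbours are given, and were chosen after their values were seen.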

How the data were processed

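Nascent RNA was measured in 9 libraries of mouse CD8+ T cells, 3 per group, and groups and replicate numbers follow the labels. The authors deposited a signal for the gene body and for the pause region of each transcript. In each library low values were whole multiples of 1 step, between 0.764 and 1.06. Whether a step stands for a read is not stated, so values were not treated as counts. The region limits, the use of strand and the counting step are not given in the sources used here. Build mm10, FastQC 0.12.0, Trim Galore 0.6.10, STAR 2.7.0a, SAMtools 1.19.2, deepTools 0.1.9 and R 4.1.2 are named per the submitters' processing notes.

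Rows were matched to GENCODE M21 by transcript identifier (117346 of 118482 with version, 383 without, 753 not matched and left out), which gave 37022 genes on chromosomes 1 to 19. Each table was brought to a common scale by trimmed means of log ratios without weights (30% of ratios and 5% of levels trimmed from each end). One limma model (limma 3.58.1, R 4.3.3) with a mean per group was fitted over 9 libraries, with intensity trend and robust moderation, and p-values were adjusted by Benjamini and Hochberg. The method was tested on simulated data. Python 3.11.15 with pandas 2.3.3 was used for the joins.

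Named genes are the 6 members, the 3 genes most like each, the 3 called members of each list with the largest differences in a comparison, and Nf1, Etv4, Etv5 and Dusp6. Some genes that this rule takes are not reported here. Members and lists were chosen with earlier results of these data known. Alternatives covered scaling, pseudocount, filter, transcript row, groups in the fit, moderation, a replicate block and leaving out each library.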

Additional observations from a re-analysis of the deposited data

How the results depend on the processing

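Depth in reads is unknown, so no counting limit can be given, and 3 libraries per group allow no exact permutation p under 0.1. The calls of Spry1 and Spry2 in Chronic against Acute, of Spry2, Spry4 and Spred1 in ChronicMEKi against Chronic and of Spry1 and Spred1 in ChronicMEKi against Acute held, in the same direction, in the gene body under every alternative run and without each library. With a minimum of 200, neither Spry4 nor any member in the pause region was tested, and without Acute replicate 1 or 2 or Chronic replicate 2 Spry1 was not tested in the pause region. Scaling sets the direction of small differences. On library totals, deposited values and totals that leave out the ribosomal RNA-like rows, in that order, Spred1 in Chronic against Acute was -0.35, -0.34 and -0.023, and Spry4 in ChronicMEKi against Acute became called at -1.84, -1.81 and -1.66. On the first 2 scalings Spred2 in Chronic against Acute was called at -0.59 and -0.57, and its pause-region difference between ChronicMEKi and Chronic was 0.15 and 0.10. Spry4 in Chronic against Acute was called with a pseudocount of 20 (1.12) and with only the 2 groups compared in the fit (1.36), and Spred2 in ChronicMEKi against Acute was not called without trend and robust moderation (-0.45, limma adjusted p 0.118). The cause was not tested. Genes called in the pause region between Chronic and Acute numbered 823, against 1723 on library totals, 501 without a filter and 448 with a minimum of 200. For ChronicMEKi against Chronic they numbered 230, against 106 without a filter and 110 without trend and robust moderation. For ChronicMEKi against Acute they numbered 457, against 209, 299 and 232 without a filter, with a minimum of 200 and without trend and robust moderation. Calls of pause region minus gene body between Chronic and Acute numbered 0, against 4 on library totals, 1 with a pseudocount of 0.5, 22 with a pseudocount of 20 and 6 with the row of largest pause-region signal; with a pseudocount of 20, ChronicMEKi against Acute gave 1.

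Leaving out each library in turn, Spry4 ranged from 1.28 to 1.46 in Chronic against Acute and from -2.23 to -1.14 in ChronicMEKi against Acute. Spred2 ranged from -0.21 to 0.11, from -0.55 to -0.24 and from -0.56 to -0.42 in Chronic against Acute, ChronicMEKi against Chronic and ChronicMEKi against Acute. In the pause region and for pause region minus gene body, differences of Spry1 and Spred2 that were not called changed sign. In the pause region in ChronicMEKi against Chronic, Spry1 ranged from -0.29 to 0.46 and Spred2 from -0.41 to 0.37. For pause region minus gene body, Spry1 ranged from -0.055 to 0.74 in Chronic against Acute, and Spred2 from -0.73 to 0.0063, from -0.11 to 0.62 and from -0.39 to 0.25 in the 3 comparisons in the order above. Genes called in the pause region ranged from 545 to 750, from 109 to 279 and from 233 to 512 in these 3 comparisons, and calls of pause region minus gene body between Chronic and Acute from 0 to 1.

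Whether replicate numbers pair the libraries could not be settled. Over 9 pairs of same-numbered libraries the correlation of deviations from the group means ranged from -0.53 to 0.098. Over 18 pairs with different numbers it ranged from -0.37 to 0.51. Only 1 library was closest to its own number in both other groups. Between Acute and Chronic, same-numbered pairs had 0.092, 0.098 and 0.075, and all pairs with different numbers were negative. Deviations from a group mean cancel within the group, so these signs depend on each other. Between Acute and ChronicMEKi, same-numbered pairs had -0.36, -0.53 and -0.011. With a replicate block, Spred2 in ChronicMEKi against Chronic was -0.35 with limma adjusted p 0.0240, Etv4 in Chronic against Acute had limma adjusted p 0.0520, and calls between Chronic and Acute numbered 5497 against 5403.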
